A study of Macaca mulatta with 26 samples.

Results

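Heat shock proteins are molecular chaperones that bind unfolded proteins, and cochaperones load, release or direct them. A set of 43 genes was followed: the HSP70, HSP110 and HSP90 chaperones, the small heat shock proteins, the mitochondrial chaperonin, the J-domain proteins, the BAG proteins, the heat shock factors with their regulator, and the cochaperones of HSP90. They were picked by symbol from the deposited expression table, where 42 of the 43 names had a row among 50308 genes. HSPA6 was not analysed here.

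The chaperones work as a relay. J-domain proteins deliver a client to HSP70, exchange factors of the HSP110 and BAG families free it, and STIP1 (also called HOP) passes it on to HSP90, whose cycle AHSA1 and FKBP4 tune. HSF1, a transcription factor held inactive by free chaperones, switches on the stress-inducible members when unfolded proteins, heat or other stresses draw those chaperones away. In other mammals its activity also varies with body temperature through the day. Photoreceptors renew a large mass of membrane protein daily and depend on chaperones for the folding of rhodopsin and phototransduction enzymes.

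RNA was sequenced of rhesus macaques from 2 tissues: the pineal gland, which makes melatonin at night, and the retina. Per the labels, 12 animals of both sexes, 3 to 33 years old and gathered over 11 years, lived for at least 6 weeks in a 12 h light and 12 h dark cycle that began at 0600. Each tissue had 3 libraries at each of 4 times: dawn (between 0500 and 0700), mid-day (1100 and 1300), dusk (1700 and 1900) and midnight (2300 and 0100). Animals taken at dusk or at night were anaesthetised under dim red light and blindfolded, and tissue removal took up to 45 minutes after death. Single libraries of pooled RNA from 16 tissues, 1 at mid-day and 1 at midnight, served as controls; brain regions, heart, skeletal muscle, testis and ovary are among the tissues named. Levels are in FPKM, a unit of reads per length of gene and per size of library. Differences are log2(FPKM + 0.5) from limma with their standard error (SE), and a member was called where its p, adjusted by Benjamini and Hochberg across every tested gene, was under 0.05. Genes with at least 1 FPKM in at least 3 fitted libraries were tested, which kept 41 members in the pineal gland and 38 in the retina.

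Reads assigned to genes numbered 11.7 M to 16.1 M in pineal libraries, 16.9 M to 21.4 M in retina libraries and 16.2 M and 23.0 M in the pools. The members took 0.446% to 0.525% of the reads in pineal libraries, 0.374% to 0.583% in retina libraries and 0.396% to 0.440% in the pools. The tissue labels matched their markers: 6 pineal genes summed to 857 to 1327 FPKM in pineal libraries against 289 to 458 FPKM in retina libraries, and 6 photoreceptor genes to 140.2 to 217 FPKM in pineal libraries against 3340 to 4473 FPKM in retina libraries. Some libraries stood apart. The share of genes without a read was 44.8% in retina dawn 2 and 45.7% in retina mid-day 1, while the remaining 10 retina libraries lay between 33.5% and 35.2%. Pineal dusk 3 held 690.2 FPKM of 5 testis germ cell genes, against 0 to 0.517 FPKM in the other 11 pineal libraries. XIST, the RNA of the inactive X chromosome, was at 1 FPKM or more in 1, 3, 2 and 1 pineal libraries and in 0, 1, 3 and 1 retina libraries at dawn, mid-day, dusk and midnight, so the counts differed between the tissues at 3 of the 4 times.

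In the retina 27 of 38 members had their highest mean at dusk, against 2 at dawn, 5 at mid-day and 4 at midnight, and no member passed the adjusted threshold. At dusk against dawn, 34 of 38 members had a positive log2 difference, which 63% of all genes tested had, and the median difference was 0.40 for the members and 0.08 for all genes. The groups did not overlap for 24 members higher at dusk, a pattern shown by 12.4% of all genes, and for 2 that were lower, HSPA2 and HSPA4 (6.75%). Limma called 0 of the 38 after adjustment (0% of all genes), and 20 had an unadjusted p under 0.05, all of them higher (6.7% of all genes, with 3.97% lower). Voom on read numbers recovered from the FPKM values also called 0 and gave 20 higher and 1 lower at that level. The smallest adjusted p was 0.104, for HSPA8. In bulk tissue, more cells of a type and more RNA per cell cannot be told apart.

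HSPA8, the constitutive HSP70 that handles most everyday folding, was among the most abundant members. In the retina it stood at 70.6, 88.4 and 78.3 FPKM at dawn, 148, 120.3 and 99.1 FPKM at mid-day, 150.1, 149.5 and 156 FPKM at dusk, and 95.8, 97.6 and 91.6 FPKM at midnight. All 3 dusk libraries lay above every other retina library, and the dawn libraries lay below every other one. The log2 difference was 0.94 ± 0.13 (SE) at dusk against dawn and -0.67 ± 0.13 at midnight against dusk. Without retina dawn 2 and mid-day 1, a setting chosen after seeing the data, limma called both (1.02, adjusted p = 0.0356, and -0.67, adjusted p = 0.0490). The share of all genes called in that fit is not given here. With an indicator of XIST in the model, chosen in the same way, the difference at dusk against dawn was 0.76 (limma adjusted p = 0.408) and not called. The authors' deposited table also called HSPA8 higher at dusk than at dawn, with a log2 fold change of 0.85 and an adjusted p of 2.6e-16.

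The stress-inducible pair HSPA1A and HSPA1B was much lower in level. HSPA1A stood at 3.58, 3.42 and 2.62 FPKM at dawn, 10.2, 4.86 and 4.04 FPKM at mid-day, 5.89, 12.1 and 7.92 FPKM at dusk, and 3.58, 5.07 and 2.51 FPKM at midnight. HSPA1B had 2.54, 2.3 and 2.05 FPKM at dawn, 5.65, 4.25 and 4.31 FPKM at mid-day, 5.13, 12.9 and 3.51 FPKM at dusk, and 1.58, 2.51 and 2.25 FPKM at midnight. For both genes all dusk libraries lay above all dawn and all midnight libraries, with dusk 2 far above the other dusk libraries. Their log2 differences at dusk against dawn were 1.26 ± 0.36 and 1.27 ± 0.37. These copies are nearly identical, so reads could be divided between them or lost, and their separate levels are uncertain.

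HSPH1, the inducible HSP110 exchange factor, stood at 25.4, 19.4 and 22.8 FPKM at dawn, 62.0, 43.7 and 28.9 FPKM at mid-day, 46.5, 99.4 and 50.1 FPKM at dusk, and 18.7, 19.3 and 24.2 FPKM at midnight. The dusk and mid-day libraries did not overlap with the dawn or midnight ones. The log2 difference was 1.43 ± 0.32 at dusk against dawn and -1.56 ± 0.32 at midnight against dusk, and it was still 1.09 and -1.21 without dusk 2. Its relative HSPA4 ran the other way, with 103, 120.0 and 109 FPKM at dusk against 132, 121 and 122 FPKM at dawn; the difference of -0.18 ± 0.09 was not called. At mid-day HSPA4 had 107, 99.8 and 100.2 FPKM and at midnight 127, 126 and 100.4 FPKM, so one midnight library lay among the mid-day ones. HSPA4L, the third HSP110 member, had 58.3, 91.0 and 48.4 FPKM at dusk against 33.8, 47.9 and 49.99 FPKM at dawn, and the groups overlapped. It had 59.3, 50.5 and 54.3 FPKM at mid-day and 43.01, 32.3 and 52.8 FPKM at midnight.

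**Figure D1:**
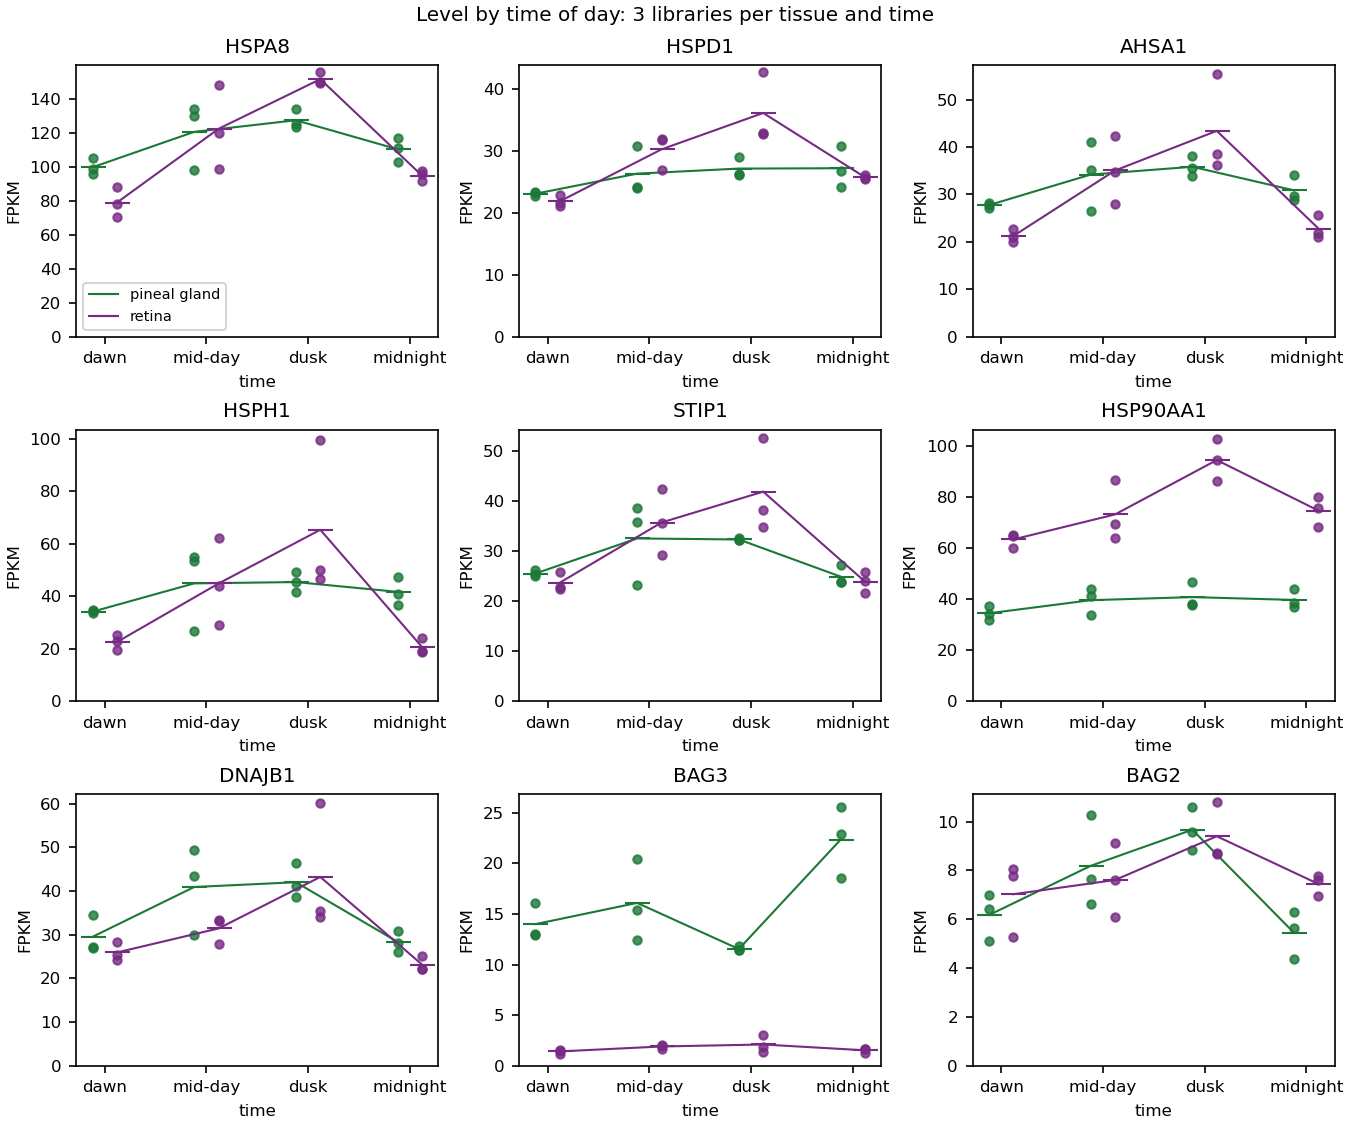
Level in FPKM (y axis, from 0) of 9 members at the 4 times (x axis), in pineal gland (green, left of each pair) and retina (purple, right); points are single libraries, 3 per tissue and time, and short bars joined by lines are means. In the retina HSPA8, HSPD1, AHSA1, HSPH1 and STIP1 have all dusk libraries above all dawn and midnight libraries, and in the pineal gland BAG3 has all midnight libraries above all dusk ones.

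HSP90AA1, the inducible cytosolic HSP90, had 86.3, 103 and 94.6 FPKM at dusk, against 65.4, 60.1 and 65.0 FPKM at dawn (log2 difference 0.57 ± 0.11). Its mid-day libraries stood at 86.6, 69.4 and 63.9 FPKM and its midnight libraries at 80.3, 75.9 and 68.2 FPKM. HSP90AB1, the constitutive form, had 13.9, 17.2 and 13.0 FPKM at dusk, against 8.60, 11.6 and 8.67 FPKM at dawn (0.59 ± 0.15). For neither gene did dusk and dawn overlap. The mitochondrial chaperonin HSPD1 (HSP60) had 32.8, 42.8 and 32.9 FPKM at dusk, against 21.2, 21.7 and 22.9 FPKM at dawn, a log2 difference of 0.70 ± 0.10. It had 32.0, 31.9 and 27.0 FPKM at mid-day and 26.2, 25.6 and 25.7 FPKM at midnight, and every midnight library lay below every dusk library. Its lid HSPE1 (HSP10), the neighbouring gene, was counted at 21 to 72 reads per retina library, at 0.814 to 2.48 FPKM.

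Among the cochaperones of HSP90, AHSA1, which activates its ATPase, stood at 20.1, 22.7 and 21.0 FPKM at dawn, 42.3, 34.8 and 28.1 FPKM at mid-day, 38.6, 55.5 and 36.1 FPKM at dusk, and 21.8, 21.1 and 25.6 FPKM at midnight. STIP1 stood at 22.5, 25.9 and 22.9 FPKM, then 42.5, 35.6 and 29.2 FPKM, then 38.2, 52.8 and 34.9 FPKM, and 24.2, 21.8 and 26.0 FPKM at the same 4 times. For both, mid-day and dusk libraries lay above all dawn and midnight libraries. The log2 differences at dusk against dawn were 0.99 ± 0.18 for AHSA1, 0.79 ± 0.17 for STIP1, 0.53 ± 0.18 for the immunophilin FKBP4 and 0.48 ± 0.19 for CHORDC1.

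Among the J-domain proteins, DNAJA1 (0.80 ± 0.19), DNAJB1 (0.68 ± 0.19) and DNAJB4 (0.65 ± 0.13) had log2 differences of at least 0.65 at dusk against dawn. DNAJB1, the main inducible partner of HSP70, had 34.0, 60.2 and 35.5 FPKM at dusk, against 25.5, 28.2 and 24.2 FPKM at dawn. DNAJA1 stood at 45.3, 47.8 and 47.6 FPKM at dawn, 84.9, 65.3 and 56.2 FPKM at mid-day, 71.6, 111 and 69.9 FPKM at dusk, and 54.8, 43.5 and 53.7 FPKM at midnight. In each the dusk 2 library stood highest, and dusk did not overlap with dawn. HSPA9, the mitochondrial HSP70, stood at 55.1, 60.0 and 56.7 FPKM at dawn, 62.5, 61.0 and 56.3 FPKM at mid-day, 58.8, 73.5 and 60.5 FPKM at dusk, and 67.6, 60.3 and 62.7 FPKM at midnight, where every library lay above every dawn one. DNAJB6, DNAJB2, DNAJB5 and DNAJA2 had smaller positive differences of 0.27, 0.22, 0.27 and 0.12 with an unadjusted p under 0.05.

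Small heat shock proteins hold unfolded proteins without using ATP. HSPB8, which works with BAG3 in selective autophagy, had 6.17, 9.25 and 7.59 FPKM at dusk, against 3.11, 4.86 and 3.12 FPKM at dawn (0.97 ± 0.21). CRYAB, the alpha-B crystallin of lens, muscle and glia, had 21.2, 33.2 and 31.7 FPKM at dusk and 20.5, 18.4 and 21.6 FPKM at dawn, and the groups overlapped. At mid-day it had 20.1, 46.9 and 29.8 FPKM and at midnight 22.4, 25.7 and 19.8 FPKM. The sum of 7 lens genes was 33.5 to 52.0 FPKM at dawn, 36.4 to 63.9 FPKM at mid-day, 45.3 to 101 FPKM at dusk and 64.9 to 77.7 FPKM at midnight, so its highest median and that of CRYAB fell at different times. Their part in the level of CRYAB was not tested.

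HSF2 and BAG5 had their highest mean at midnight. HSF2, the second heat shock factor, had 26.2, 23.4 and 24.3 FPKM at midnight, against 20.1, 19.4 and 21.5 FPKM at mid-day, a log2 difference of 0.27 ± 0.05 (adjusted p = 0.15, limma). BAG5 had 30.0, 34.0 and 33.2 FPKM at midnight, against 27.7, 23.9 and 25.6 FPKM at mid-day (0.33 ± 0.10). Neither pair of groups overlapped. HSF1 itself had 22.1, 19.7 and 17.6 FPKM at dusk and 17.2, 22.0 and 19.8 FPKM at dawn, a difference of 0.01 ± 0.15.

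Across the other pairs of times limma again called 0 members (0.0274% of all genes at midnight against dusk and 0% at the other pairs), and voom called 0. At midnight against dusk, 20 members were lower and 2, BAG5 and HSF2, higher at an unadjusted p under 0.05 (6.81% and 4.02% of all genes), and the groups did not overlap for 20 lower (13%) and 1 higher (8.67%). At mid-day against dawn 13 were higher and 2, HSPA4 and HSF2, lower (4.9% and 2.9%). At midnight against mid-day 12 were lower and 2 higher (6.89% and 4.29%). Dusk against mid-day gave 5 higher and 0 lower (1.96% and 1.69%): HSP90AA1, HSPA8, HSPD1, DNAJB6 and HSF2. Dawn against midnight gave 0 higher and 3 lower (2.16% and 2.33%): BAG5, HSPB8 and HSPD1. In the F test over the 4 times 20 of 38 members had an unadjusted p under 0.05, against 10.2% of all genes, and 0 were called. Of all genes 30.9% had their highest mean at dusk, and dawn held the lowest mean for 21 members and for 29.8% of all genes.

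**Figure D2:**
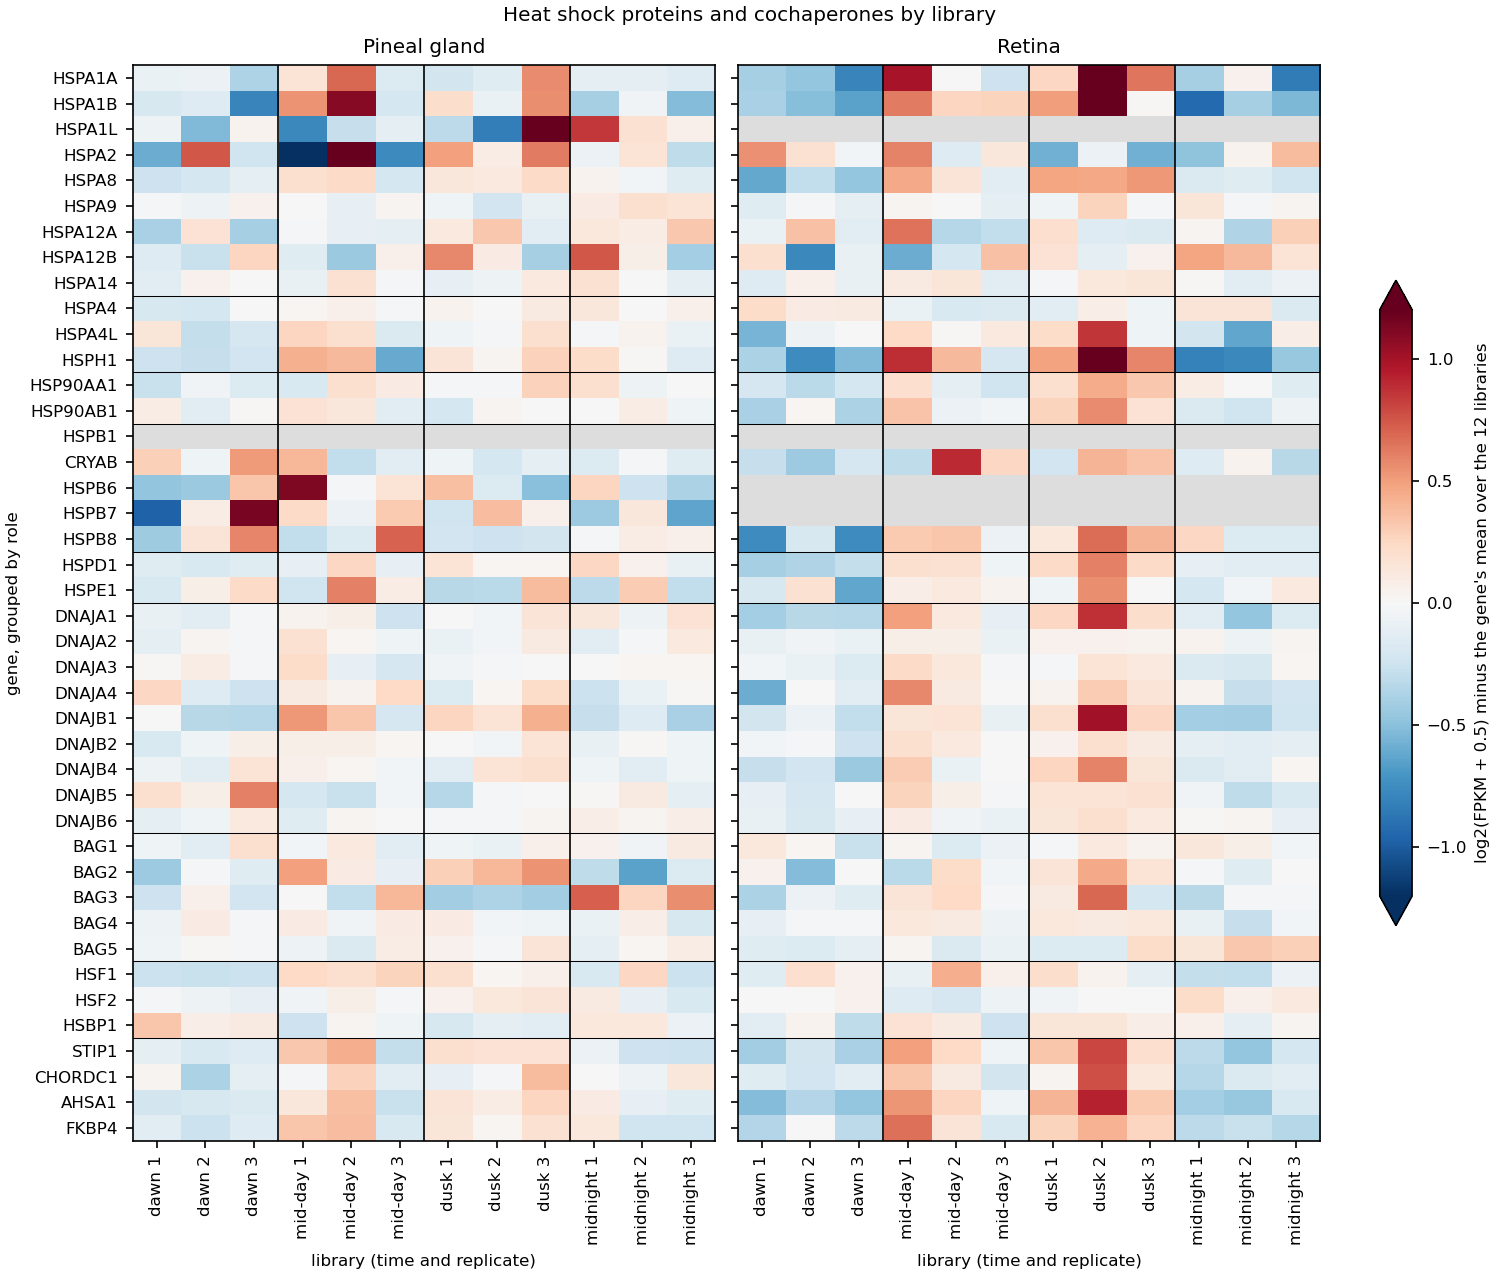
Log2(FPKM + 0.5) of each member minus its mean over the 12 libraries of that tissue (colour, clipped at 1.2), in the pineal gland (left) and the retina (right); columns are libraries ordered by time and replicate, rows are genes grouped by role, and grey rows were below the level filter. In the retina dusk 2 and mid-day 1 are the reddest columns and the dawn and midnight columns are mostly blue, while in the pineal gland mid-day 1 and 2 differ in colour from mid-day 3.

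The authors' deposited tables, whose mean signal is on the scale of normalised counts, called more members. For dusk against dawn in the retina, the authors' deposited table had 14 members higher and 0 lower of 35 with an adjusted p, where 1.46% and 2.59% of its genes were called. The 14 were HSPA8, HSP90AA1, AHSA1, HSPH1, HSPD1, STIP1, HSPA1A, DNAJA1, DNAJB4, FKBP4, HSPB8, DNAJB6, HSPA1B and DNAJB1, with log2 fold changes of 0.24 (DNAJB6) to 0.98 (HSPH1). For midnight against dusk the authors' deposited table called 11 of 40 members lower (1.02% of its genes) and 0 higher (1.52%). For mid-day against dawn the authors' deposited table called HSPD1, HSPA1B, AHSA1, HSPA8 and STIP1 higher and HSPA4 lower (0.468% and 0.383%). For midnight against mid-day the authors' deposited table called HSPA1B, HSPH1, DNAJB1, STIP1 and AHSA1 lower and BAG5 higher (1.53% and 0.901%). For dawn against midnight the authors' deposited table called BAG5 lower at dawn (0.239%) and 0 members higher (0.127%). For dusk against mid-day the authors' deposited table called 0 of 36 (0.0337% and 0.0472%). These tables rest on the same libraries as the values above.

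Single libraries carried part of the retinal pattern. Dusk 2 was the highest of the 12 retina libraries for 20 of 38 members, as it was for 9.74% of all genes. The 17 tested members listed as stress-inducible had a median deviation from their means of 0.78 on the log2 scale in dusk 2, against 0.25 and 0.23 in dusk 1 and dusk 3. The 17 were HSPA1A, HSPA1B, HSPA4L, HSPA8, HSPH1, HSP90AA1, CRYAB, HSPD1, HSPE1, DNAJA1, DNAJB1, DNAJB4, BAG3, STIP1, CHORDC1, AHSA1 and FKBP4. The constitutive HSPA8 was thus counted in this list. The 7 immediate early genes summed to 59.3 FPKM in dusk 2, against 17.6 and 17.5 FPKM in dusk 1 and dusk 3. They summed to 52.9 FPKM in midnight 3 and 30.3 FPKM in mid-day 1, where the listed members deviated by -0.18 and 0.33. A link between these genes and the members was not tested. Without dusk 2, 15 members were higher at dusk than at dawn and 2 lower at an unadjusted p under 0.05, where 8.24% of all genes passed in either direction. At midnight against dusk 14 were then lower and 1 higher (8.73%). Without mid-day 1 the count of 13 higher at mid-day than at dawn became 6 (with 2 lower, and 6.90% of all genes in either direction), and it was 8 without dawn 1 or dawn 3. Without dawn 2 and mid-day 1 together, 19 members were higher and 0 lower at dusk against dawn, where 14.6% of all genes passed in either direction. The differences were then 1.33 for HSPH1, 1.04 for AHSA1, 0.85 for STIP1, 0.69 for HSPD1 and 0.53 for HSP90AA1, not called.

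XIST was at 1 FPKM or more in all 3 retina dusk libraries and in 0 of the 3 dawn libraries, so XIST and these times cannot be told apart. In a model its effect rests on mid-day 1 and midnight 3, each against the other libraries of its time. Mid-day 1 is a library that stood apart in its share of genes without a read. With an indicator of XIST in the model, 9 members were higher and 2 lower at dusk against dawn at an unadjusted p under 0.05, in place of 20 and 0, and 11.7% of all genes passed in either direction. At midnight against dusk 9 in place of 20 were lower and 3 higher (9.79%). HSPA8 then differed by 0.76 ± 0.18 and HSPD1 by 0.64 ± 0.16 at dusk against dawn, while HSPH1 differed by 0.87 ± 0.41 (unadjusted p = 0.0656 and adjusted p = 0.408, limma). Photoreceptor genes summed to 3353 to 3822 FPKM at dusk, against 4281 to 4473 FPKM at dawn, without overlap. The part of these differences in the chaperone levels was not tested beyond this model.

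In the pineal gland fewer members had small p-values than in the retina. Limma called 0 of 41 members in the F test over the 4 times (0.105% of all genes), and 7 had an unadjusted p under 0.05 (14.5%): BAG3, BAG2, HSF1, DNAJB1, HSPA9, HSBP1 and DNAJB5. Voom gave 0 and 8. Dawn held the lowest mean for 19 of 41 members, as it did for 35.4% of all genes, and the highest mean fell at dawn for 6, at mid-day for 14, at dusk for 12 and at midnight for 9 (23.5%, 22.3%, 31.4% and 22.8% of all genes).

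Between pairs of times limma and voom called 0 pineal members. At dusk against dawn 6 were higher and 2 lower at an unadjusted p under 0.05 (10.6% and 6.41% of all genes, with 0.586% called). The higher ones were BAG2, HSPA8, HSF1, DNAJB1, AHSA1 and HSPA4, and the lower ones HSBP1 and DNAJB5. At mid-day against dawn 5 were higher and 2 lower (8.02% and 5.59%, with 0.0314% called). At midnight against dusk 2 were higher and 3 lower (4.7% and 8.12%, with 0.0576% called), and at midnight against mid-day 2 higher and 5 lower (4.45% and 6.14%, with 0.0419% called). At dawn against midnight 0 were higher and 3 lower (4.21% and 5.31%), and at dusk against mid-day BAG3 alone was lower and 0 higher (1.48% and 2.38%, with 0.0209% called). Without pineal dusk 3, 4 were higher and 2 lower at dusk against dawn (16.1% of all genes in either direction), and 3 higher and 2 lower at midnight against dusk (10.5%). The differences at dusk against dawn were then 0.55 for BAG2, 0.44 for DNAJB1, 0.37 for HSF1, 0.32 for HSPA8 and -0.33 for HSBP1, and those at midnight against dusk -0.72 for BAG2, -0.49 for DNAJB1 and 0.29 for HSPA9.

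BAG3, the cochaperone that steers clients to autophagy, stood at 12.9, 16.0 and 13.0 FPKM at dawn, 15.4, 12.5 and 20.4 FPKM at mid-day, 11.4, 11.8 and 11.4 FPKM at dusk, and 25.6, 18.5 and 22.9 FPKM at midnight. The dusk libraries lay below every other one and the midnight libraries above all dawn and dusk ones. The log2 difference at midnight against dusk was 0.91 ± 0.17 (adjusted p = 0.0829, limma). It was called without pineal mid-day 3 (limma adjusted p = 0.0169), and without pineal dusk 3 it was 0.90 (limma adjusted p = 0.206). The authors' deposited table called it higher at midnight than at dusk, at 0.93 with an adjusted p of 1.2e-06.

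BAG2, an inhibitor of the ubiquitin ligase CHIP, ran opposite to BAG3 at midnight against dusk. It stood at 5.13, 6.99 and 6.41 FPKM at dawn, 10.3, 7.66 and 6.64 FPKM at mid-day, 8.83, 9.56 and 10.6 FPKM at dusk, and 5.66, 4.39 and 6.30 FPKM at midnight. Dusk lay above dawn and midnight without overlap, with a log2 difference of -0.78 ± 0.18 at midnight against dusk. DNAJB1 stood at 34.6, 27.1 and 26.9 FPKM at dawn, 49.5, 43.4 and 29.9 FPKM at mid-day, 41.2, 38.5 and 46.3 FPKM at dusk, and 28.2, 30.8 and 26.1 FPKM at midnight. Its difference at midnight against dusk was -0.56 ± 0.17, without overlap. HSPA9, also called mortalin, stood at 84.5, 81.5 and 88.5 FPKM at dawn, 85.2, 79.7 and 87.1 FPKM at mid-day, 82.1, 72.7 and 80.3 FPKM at dusk, and 91.5, 97.6 and 95.4 FPKM at midnight. All its midnight libraries lay above all others, by 0.27 ± 0.08 against dusk. In the authors' deposited table for midnight against dusk HSPA9, HSPB8 and BAG3 were called higher and DNAJB1 and BAG2 lower, where 2.89% and 2.15% of its genes were called.

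HSF1 was low at dawn in the pineal gland. It had 12.9, 12.9 and 13.0 FPKM at dawn, 18.5, 17.9 and 18.9 FPKM at mid-day, 17.9, 15.9 and 16.3 FPKM at dusk, and 13.7, 18.6 and 13.0 FPKM at midnight. All mid-day and dusk libraries lay above all dawn libraries, with differences of 0.49 ± 0.12 at mid-day and 0.35 ± 0.12 at dusk. HSBP1, which binds HSF1 trimers, had 37.8, 31.7 and 32.2 FPKM at dawn, 25.1, 30.7 and 28.9 FPKM at mid-day, 26.2, 27.6 and 27.2 FPKM at dusk, and 32.8, 32.7 and 28.4 FPKM at midnight. Every dawn library lay above every mid-day and dusk library, with a difference of -0.32 ± 0.10 at dusk against dawn. DNAJB5 had 12.3, 11.8 and 14.0 FPKM at mid-day, against 16.5, 15.1 and 22.2 FPKM at dawn (-0.46 ± 0.15). The authors' deposited tables called HSF1 higher at mid-day than at dawn and 0 lower (0.617% and 0.912% of its genes), and BAG2 higher and HSBP1 lower at dusk than at dawn (1.94% and 4.21%). The authors' deposited tables called 0 of 41 at dusk against mid-day (0.0549% higher and 0.0714% lower), dawn against midnight (0.637% and 0.771%) and mid-day against midnight (0.589% and 0.416%).

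HSPA8 in the pineal gland had 95.7, 98.6 and 105 FPKM at dawn, 129.8, 134 and 98.5 FPKM at mid-day, 125, 124 and 134 FPKM at dusk, and 117, 111 and 103 FPKM at midnight. All dusk libraries lay above all dawn libraries, and the difference was 0.35 ± 0.12 in the pineal gland, where it was 0.94 ± 0.13 in the retina. CRYAB, the most abundant member there by mean, stood at 158, 125 and 185 FPKM at dawn, 171, 106 and 119 FPKM at mid-day, 125, 112 and 119 FPKM at dusk, and 116, 127 and 118 FPKM at midnight. HSPB8 had 54.6, 81.8 and 111 FPKM at dawn, 59.7, 65.6 and 121 FPKM at mid-day, 62.8, 61.7 and 62.8 FPKM at dusk, and 72.9, 78.4 and 76.5 FPKM at midnight. For both the dawn and mid-day libraries were spread more widely than those of dusk or midnight. HSPA4L had 83.7, 62.0 and 65.6 FPKM at dawn, 90.3, 86.6 and 67.1 FPKM at mid-day, 72.7, 74.8 and 86.6 FPKM at dusk, and 74.1, 77.8 and 71.5 FPKM at midnight. DNAJA1 had 70.4, 68.6 and 73.5 FPKM at dawn, 76.8, 78.6 and 63.0 FPKM at mid-day, 74.9, 73.1 and 83.3 FPKM at dusk, and 82.2, 71.8 and 84.6 FPKM at midnight. The times overlapped for both genes at mid-day, dusk and midnight. Oligodendrocyte genes varied from 18.6 to 330 FPKM summed over 5 genes in pineal libraries, and their part in the levels of CRYAB and HSPB8 was not tested.

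Pineal mid-day 3 differed from its companions. STIP1 had 35.9, 38.6 and 23.3 FPKM in mid-day 1, 2 and 3, and HSPH1 had 54.8, 53.3 and 26.7 FPKM. The members listed as stress-inducible, HSPA8 among them, had a median deviation of -0.17 in mid-day 3, against 0.16 and 0.27 in mid-day 1 and 2. Without it limma called STIP1 and HSPH1 higher at mid-day than at dawn (0.53 and 0.66), STIP1 higher at dusk than at dawn (0.34), and BAG3 higher and STIP1 lower at midnight than at dusk. It then also called STIP1 and DNAJB1 lower at midnight than at mid-day. The share of all genes called in this fit is not given here, so whether the members exceed it cannot be read from these calls. Immediate early genes summed to 82.1 FPKM in mid-day 3, against 31.4 and 37.8 FPKM in mid-day 1 and 2.

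**Figure D3:**
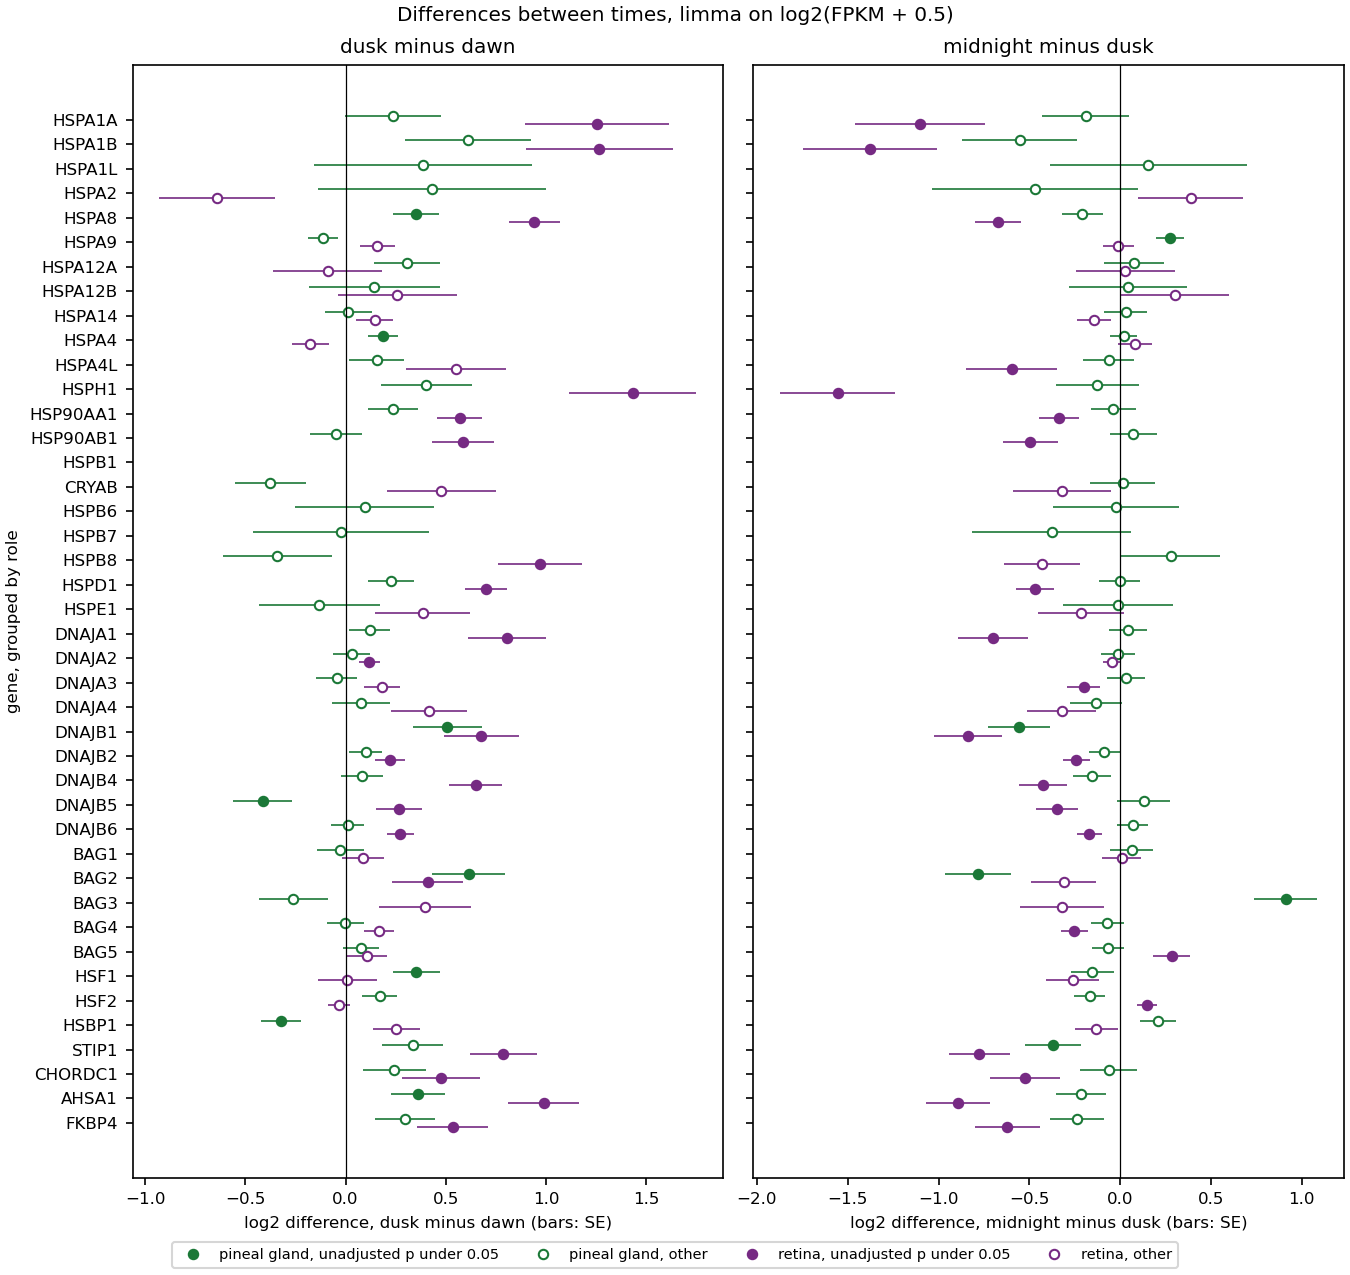
Log2 difference of each member (points, bars are SE from limma) at dusk minus dawn (left) and midnight minus dusk (right), in pineal gland (green) and retina (purple); filled points have an unadjusted p under 0.05 and genes run down the y axis by role. In the retina 20 members are higher at dusk than at dawn and 20 lower at midnight than at dusk at that level, and in the pineal gland BAG3 (0.91) and BAG2 (-0.78) lie farthest from 0 at midnight minus dusk.

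The difference between the tissues in the 4-time profile was tested directly. Limma called 0 of 41 members (0.218% of all genes), and 14 had an unadjusted p under 0.05 (9.4%): DNAJB5, BAG3, HSF2, DNAJA1, HSPA4, HSBP1, HSPH1, HSPB8, HSPA8, HSPD1, HSP90AB1, AHSA1, DNAJB4 and BAG5. The smallest adjusted p was 0.192, for DNAJB5, and voom gave 0 called and 13 at the unadjusted level.

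In the main fit limma called members between the tissues but not between times. The tissue comparison set 12 libraries against 12 and each pair of times 3 against 3, so these counts of calls cannot be compared. Of 41 members tested between pineal gland and retina, 32 were called, against 83% of all genes, so this total is not a trait of the members. Of these 23 were higher in the pineal gland (34.9% of all genes) and 9 lower (48.1%), with a median of 0.29 for the members and -0.18 for all genes. Among the 23, HSPA1L, HSPB6 and HSPB7 were below the filter in the retina and entered the test through pineal libraries. Without pineal dusk 3 only DNAJB1 lost its call.

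HSPB8, CRYAB, HSPB6, HSPB7 and BAG3 were higher in the pineal gland than in the retina, while HSPB1 was below the filter in both. HSPB8 averaged 75.7 ± 20.5 FPKM in the pineal gland and 5.87 ± 1.82 FPKM in the retina (SD, n = 12 each), a log2 difference of 3.60 ± 0.12. Its partner BAG3 averaged 16.0 ± 4.83 FPKM in the pineal gland and 1.74 ± 0.491 FPKM in the retina (2.85 ± 0.10). CRYAB averaged 132 ± 25.3 FPKM in the pineal gland and 25.9 ± 8.27 FPKM in the retina (2.35 ± 0.12). HSPB6 and HSPB7, best known from muscle, were higher by 2.16 ± 0.20 and 1.70 ± 0.20 and reached 9.49 and 5.37 FPKM in the pineal gland. Both were below the filter in the retina and were tested only because pineal libraries passed it, and with other pseudocounts, scalings or voom their differences ran from 1.73 to 3.02 and from 1.27 to 3.09. For HSPB8, BAG3 and CRYAB every pineal library lay above every retina library. Genes of skeletal and heart muscle summed to 5.82 to 25.6 FPKM in pineal libraries and 1.99 to 3.76 FPKM in retina libraries, and those of smooth muscle and mural cells to 44.6 to 117 FPKM and 18.2 to 24.5 FPKM. Oligodendrocyte genes summed to 18.6 to 330 FPKM in pineal libraries and 4.95 to 8.34 FPKM in retina libraries. The part of these cells in the differences was not tested. Against the control pools BAG3 (0.25 ± 0.15), CRYAB (0.30 ± 0.16) and HSPB6 (-0.33 ± 0.31) were not called in the pineal gland.

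Among the HSP70 family, HSPA2 was higher in the pineal gland by 2.43 ± 0.23 and HSPA1L by 2.00 ± 0.24. HSPA1L was below the filter in the retina and entered the test through the pineal libraries, with a range of 1.64 to 2.66 under other settings. HSPA9 and HSPA12B were higher by 0.48 ± 0.04 and 0.48 ± 0.16. The divergent member HSPA12A was lower, with 9.66 ± 1.64 FPKM in the pineal gland and 28.6 ± 6.80 FPKM in the retina (-1.51 ± 0.12), and the ribosome-linked HSPA14 was lower by 0.72 on the log2 scale (SE 0.05). HSPA8 averaged 115 ± 14.4 FPKM in the pineal gland and 112 ± 31.1 FPKM in the retina, and its difference of 0.07 ± 0.06 was not called. The HSP110 proteins parted ways: HSPA4 averaged 64.4 ± 4.58 FPKM in the pineal gland and 114 ± 11.8 FPKM in the retina (-0.81 ± 0.04), while HSPA4L was higher in the pineal gland (0.59 ± 0.10).

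Both HSP90 genes were lower in the pineal gland. HSP90AA1 averaged 38.7 ± 4.49 FPKM in the pineal gland and 76.6 ± 13.6 FPKM in the retina (-0.96 ± 0.06), and HSP90AB1 4.24 ± 0.375 FPKM and 11.7 ± 2.56 FPKM (-1.34 ± 0.07). HSPD1 differed by -0.11 ± 0.05, which was not called. HSPE1 was lower (-0.39 ± 0.14) but was counted at 14 to 34 reads per pineal library, and quantile normalization turned its sign to 0.12 (limma adjusted p = 0.553). HSP90AB1, HSPD1, HSPE1, HSPB1 and HSPA8 have many processed copies in the human genome, to which reads could be lost, so their absolute levels are uncertain.

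Of the 9 J-domain members all were called higher in the pineal gland, as 34.9% of all genes were: DNAJB5 (1.68 ± 0.06), DNAJA4 (1.47 ± 0.09), DNAJB4 (1.04 ± 0.06), DNAJB6 (0.36 ± 0.04), DNAJA1 (0.31 ± 0.08), DNAJB2 (0.31 ± 0.04), DNAJA2 (0.28 ± 0.04), DNAJA3 (0.26 ± 0.05) and DNAJB1 (0.20 ± 0.09). DNAJB1 was the weakest, with an adjusted p of 0.0488 by limma and of 0.0834 without pineal dusk 3. BAG5 (0.39 ± 0.05) and BAG4 (0.15 ± 0.04) were also higher, BAG1 was lower (-0.41 ± 0.05) and BAG2 was not called. The factors HSF2 (-0.43 ± 0.03) and HSF1 (-0.28 ± 0.07) were lower while their regulator HSBP1 was higher (0.21 ± 0.06). Of the HSP90 cochaperones CHORDC1 was higher (0.46 ± 0.09), and AHSA1, STIP1 and FKBP4 were within 0.13 of 0 and not called.

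**Figure D4:**
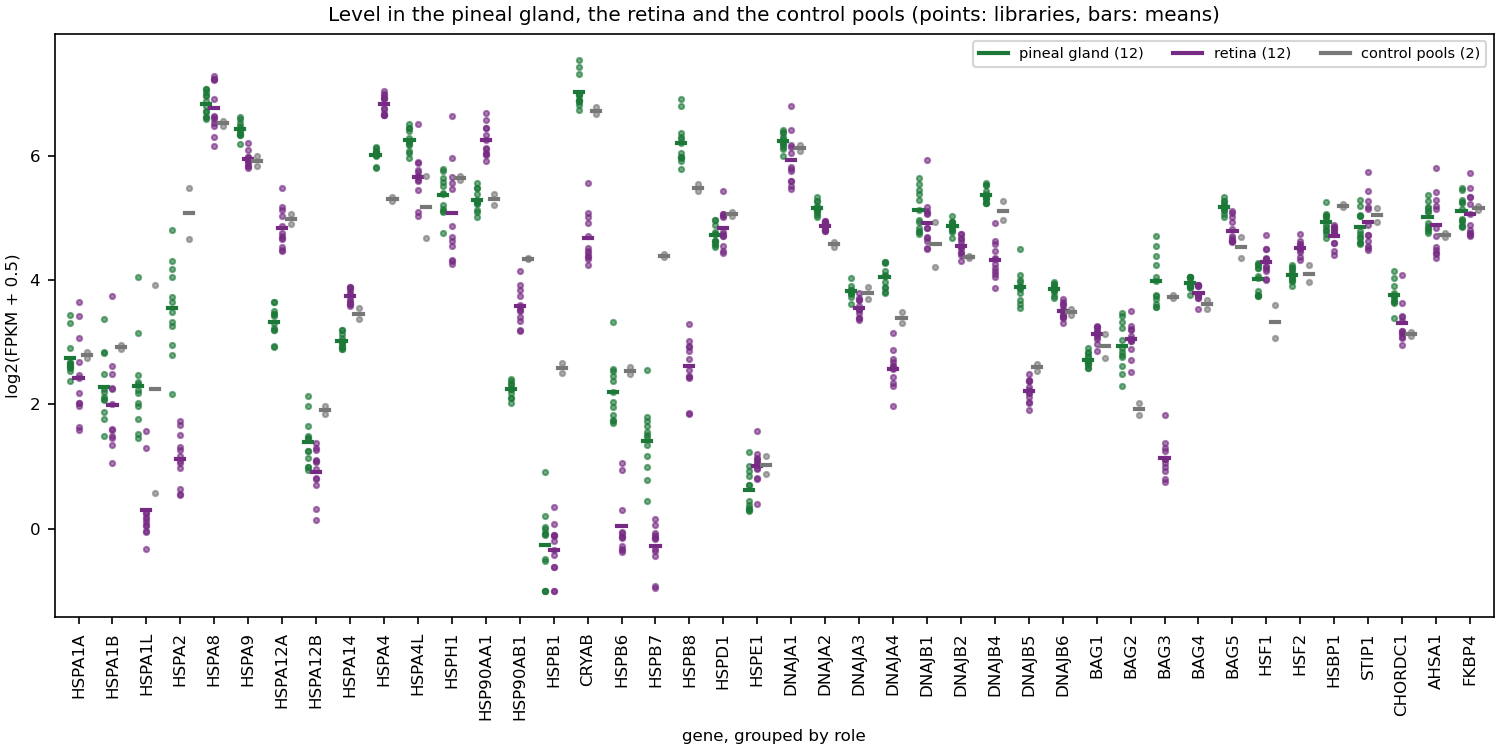
Level of each of the 42 members as log2(FPKM + 0.5) (y axis) in pineal gland (green, 12 libraries), retina (purple, 12) and the control pools (grey, 2), side by side for each gene (x axis, grouped by role); points are libraries and bars are means on that scale. HSPB8, BAG3, CRYAB, HSPB6 and HSPB7 separate pineal gland above retina without overlap, and HSPA4, HSP90AA1, HSP90AB1 and HSPA12A separate the other way. HSPB6 and HSPB7 were below the level filter in the retina.

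Against the control pools, which give a level for much of the body, 24 of 42 members were called in the pineal gland (51.1% of all genes), 16 higher (26.2%) and 8 lower (24.9%). The higher ones were DNAJB5 (1.30 ± 0.13), HSPA4L (1.07 ± 0.20), BAG2 (1.0 ± 0.17), HSPB8 (0.72 ± 0.24), HSPA4 (0.71 ± 0.07), HSF1 (0.68 ± 0.14), DNAJA4 (0.65 ± 0.13), BAG5 (0.65 ± 0.10), CHORDC1 (0.63 ± 0.14) and DNAJA2 (0.59 ± 0.08), then DNAJB1 (0.55), HSPA9 (0.51), DNAJB2 (0.49), DNAJB6 (0.37), BAG4 (0.34) and HSPA8 (0.32). The lower ones were HSPB7 (-2.98 ± 0.39), HSPB1 (-2.85 ± 0.34), HSP90AB1 (-2.10 ± 0.11), HSPA12A (-1.66 ± 0.15), HSPA2 (-1.51 ± 0.52), HSPA14 (-0.44 ± 0.11), HSPD1 (-0.34 ± 0.10) and HSBP1 (-0.27 ± 0.09). The 2 pools fix the control level, and 17 members were called with the mid-day pool alone and 16 with the midnight pool alone, in place of 24. The shares of all genes called with a single pool are not given here, so the drop is not read as a trait of the members. HSPA2, HSPA8, HSPD1, HSBP1 and HSPB8 lost the call with either pool alone, HSF1 and DNAJB1 with the midnight pool alone, and BAG4 and HSPA14 with the mid-day pool alone. HSPB1 was below the filter with either. In the full fit it passed only through the 2 pools and pineal dusk 3 (1.37 FPKM), where it was highest. It was below the filter without that library too.

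In the retina 24 of 40 members were called against the pools (59.9%), 9 higher (36.8%) and 15 lower (23.1%). HSPA4 was the farthest above, with 114 ± 11.8 FPKM in the retina (SD, n = 12) and 38.2 and 39.8 FPKM in the pools (1.53 ± 0.08). BAG2 (1.12 ± 0.16), HSF1 (0.96 ± 0.16), HSP90AA1 (0.95 ± 0.10), HSF2 (0.41 ± 0.07), DNAJA2 (0.30 ± 0.05), HSPA14 (0.28 ± 0.09), BAG4 (0.19 ± 0.07) and DNAJB2 (0.18 ± 0.07) followed. The lower ones were HSPA2 (-3.94 ± 0.28), HSPB8 (-2.87 ± 0.18), BAG3 (-2.60 ± 0.20), HSPB6 (-2.50 ± 0.38), CRYAB (-2.06 ± 0.24), HSPA1L (-1.95 ± 0.64), HSPA12B (-1.0 ± 0.27), HSPA1B (-0.93 ± 0.33), DNAJA4 (-0.82 ± 0.17) and DNAJB4 (-0.79 ± 0.13), then HSP90AB1 (-0.76), HSBP1 (-0.48), DNAJB5 (-0.38), DNAJA3 (-0.24) and HSPD1 (-0.23). The median of all genes was 0.21 in this comparison, and quantile normalization, which moved it to -0.03, called 6 members higher and 18 lower. The shares of all genes in that fit are not given here. HSPA1B, HSPA12B, HSPD1 and DNAJB2 lost the call with either pool alone, DNAJB5 and HSPA14 with the midnight pool alone, and BAG4 and DNAJA3 with the mid-day pool alone. HSPB6 passed the filter only through the pools, retina dawn 2 (1.42 FPKM) and retina mid-day 1 (1.59 FPKM). HSPA1L passed it only through the midnight pool and retina midnight 1 and 2 (1.97 and 2.48 FPKM).

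Muscle genes summed to 5.82 to 25.6 FPKM in pineal libraries and 1.99 to 3.76 FPKM in retina libraries, against 1674 to 1922 FPKM in the pools. HSPB7 had 0.866 to 5.37 FPKM in the pineal gland and 0.0138 to 0.612 FPKM in the retina, against 20.1 and 20.9 FPKM in the pools. HSPB1 (HSP27) had 0 to 7 reads in every pineal and retina library, against 36 and 45 reads in the pools, where it stood at 5.18 and 5.88 FPKM. HSPB1 and HSPB7 were below the level filter in the retina, and the authors' deposited table for the retina against control gave them log2 fold changes of -3.91 and -5.60. HSPA1L and HSPB6 were below the filter in the retina's time comparisons, and HSPB1 in those of the pineal gland. Over all members the authors' deposited table for the retina against control called 8 higher and 14 lower of 42 (25.5% and 24%). The part of muscle RNA in these differences was not tested.

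HSPA1L, an HSP70 known for its expression in testis, was high in the libraries that held testis germ cell genes in quantity. The midnight pool held 14.7 FPKM of HSPA1L and the mid-day pool 0.982 FPKM, and the 5 germ cell genes summed to 1650 FPKM in the midnight pool and 8.03 FPKM in the mid-day pool. Among pineal libraries dusk 3 had 16.1 FPKM of HSPA1L, against 2.26 to 8.33 FPKM in the other 11. In that library PRM1, PRM2 and TNP1, which package sperm DNA, stood at 237, 234 and 198 FPKM. HSPA2 and HSPA4L, also prominent in testis, had 17.6 and 86.6 FPKM in pineal dusk 3, within the range of the other pineal libraries, and 44.0 and 50.5 FPKM in the midnight pool against 24.9 and 25.1 FPKM in the mid-day pool. DNAJB1 had 30.1 FPKM in the midnight pool and 18.1 FPKM in the mid-day pool. Against the mid-day pool alone the pineal gland differed by 1.57 for HSPA4L, -1.11 for HSPA2 and 0.91 for DNAJB1, and against the midnight pool alone by 0.58, -1.92 and 0.19. The retina differed by 0.98 for HSPA4L and 0.70 for DNAJB1 against the mid-day pool alone, both called, and by -0.01 and -0.02 against the midnight pool alone.

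Without pineal dusk 3 HSPA1L stayed higher in the pineal gland than in the retina, at 1.81 ± 0.17 in place of 2.00 ± 0.24. The germ cell genes PRM1, PRM2, TNP1, ODF1 and LDHC summed to at most 0.517 FPKM in the other pineal libraries, where HSPA1L still had at least 2.26 FPKM. Against the pools the difference of HSPA1L was 0.05 ± 0.72 with all libraries and -0.15 ± 0.61 without dusk 3, and neither was called. It was 1.73 against the mid-day pool alone and -1.63 against the midnight pool alone in the pineal gland, so its sign turned with the pool. In the retina it was -1.95 ± 0.64 over both pools (adjusted p = 0.0239, limma) and -3.63 against the midnight pool alone, while with the mid-day pool alone it was below the filter. HSPA1L and HSPA1A lie next to each other, and without a stated strand setting reads over both cannot be assigned to one of them for sure.

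**Figure D5:**
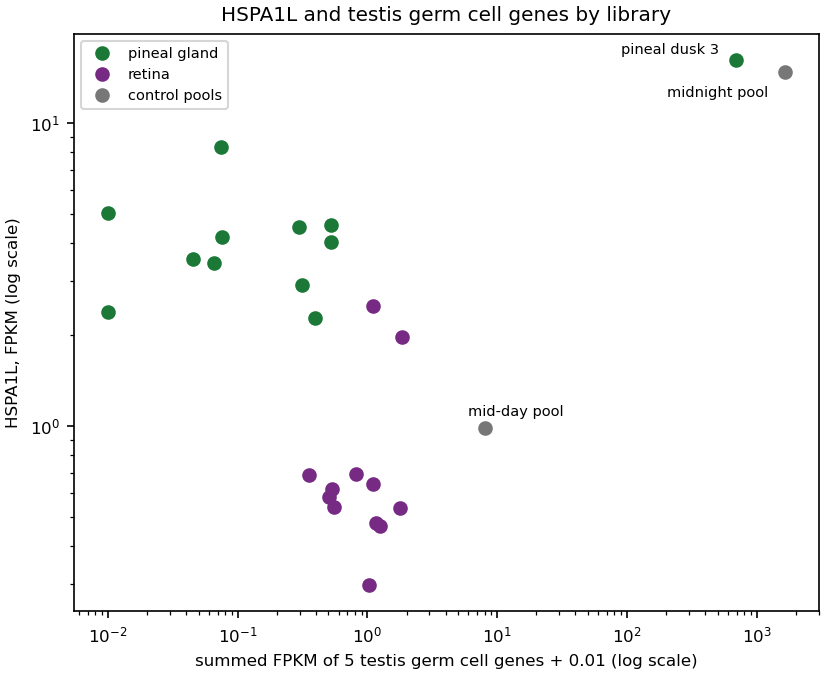
HSPA1L in FPKM (y axis, log scale) against the summed FPKM of 5 testis germ cell genes plus 0.01 (x axis, log scale) in each of the 26 libraries, with pineal gland in green, retina in purple and control pools in grey. Pineal dusk 3 (16.1 FPKM) and the midnight pool (14.7 FPKM) lie together at the upper right, apart from the mid-day pool (0.982 FPKM) and all other libraries.

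Related chaperone genes outside the set were followed as 7 lists of 61 genes. Of the 8 subunits of the cytosolic chaperonin CCT, which folds actin and tubulin, limma called 0 in the retina at dusk against dawn, and 6 were higher at an unadjusted p under 0.05 (6.7% of all genes), with a median log2 difference of 0.44, where that of all genes was 0.08. At midnight against dusk 7 were lower (6.81%), with a median of -0.40. CCT3 had 40.1, 41.8 and 41.6 FPKM at dusk, against 28.7, 32.4 and 30.1 FPKM at dawn, and the groups did not overlap. In the pineal gland 4 of the 7 tested subunits were higher at dusk than at dawn at that level (10.6%), with a median of 0.28, and 0 were called.

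The prefoldins, which feed CCT, had 3 of 6 higher in the retina at dusk against dawn at an unadjusted p under 0.05, where 6.7% of all genes were. The other HSP90 and HSP70 cochaperones had 5 of 15, the other J-domain proteins 3 of 14, the other mitochondrial chaperones and proteases 1 of 6, the other small heat shock proteins 0 of 3, and a list of HSF4 and heat shock targets 1 of 5 higher and 1 lower. None of these was called after adjustment, and the median differences were 0.13, 0.07, 0.07, 0.11, 0.08 and 0.30.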

How the data were processed

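RNA-seq libraries of 12 pineal glands, 12 retinas and 2 control pools were used. The deposited table holds FPKM that the authors computed. Per the submitters' processing notes, STAR 2.3.0e, FastQC, Subread, featureCounts, DESeq2 and the human build hg19 are named, without their roles, for these macaque reads. Annotation, filters and strand setting are not given in the sources used here. The authors' deposited comparison tables hold, per the file headers, log2 fold changes with their standard errors, a test score, p-values and a mean signal on the scale of normalised counts. The deposited pineal-against-control table had the same log2 fold changes as the retina one for all 50308 genes and was not used for the pineal gland.

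FPKM steps gave whole reads for 42804 of 42804 genes above 0 (within 0.01), from which depth was taken. Limma 3.58.1 in R 4.3.3 was fitted to log2(FPKM + 0.5) of genes at 1 FPKM or more in at least 3 fitted libraries, in 18 comparisons over all genes, two-sided, with Benjamini-Hochberg adjustment and a threshold of 0.05. Voom on the recovered reads was an alternative, as were pseudocounts of 0.1 and 1, no filter, quantile normalization, a replicate block, each library left out, mid-day and midnight libraries alone against the pools and, chosen after seeing the data, an XIST indicator and leaving out retina dawn 2 and mid-day 1 together. The fit was tested on simulated data. Python 3.11.15, numpy 2.4.6, pandas 2.3.3 and matplotlib 3.10.9 were used for the rest.

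The members and lists were chosen with earlier results of these data known. Values in every library are given for the 6 members per tissue with the smallest p in the test over the 4 times and for the 6 with the highest mean, and other members shown by library were chosen after their values were seen. Per the labels each time had its own animals, and the spread behind every p is that of 3 libraries per time. Same-group libraries differed by more than sampling noise (chi-square per gene 8.50 to 40.5 over 24 pairs).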

Additional observations from a re-analysis of the deposited data

How the results depend on the processing

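Counts of members under the alternatives stayed within 1.5 times the main count in 510 cases and moved beyond it in 19. The shares of all genes are not given beside the counts in this section, which show only how far the member counts moved. Leaving out 1 library at a time gave 0 to 3 calls in the pineal 4-time test, 0 to 2 at mid-day against dawn, 0 to 2 at midnight against dusk, 0 to 1 at dusk against dawn and 0 to 2 at midnight against mid-day, the highest of each without mid-day 3; pineal members at an unadjusted p under 0.05 over the 4 times numbered 5 to 13. In the retina the members higher at mid-day than at dawn numbered 6 to 16, and those lower at midnight than at mid-day 6 to 16 (6 without mid-day 1 and 7 without mid-day 2 or without midnight 2). Without retina dawn 2 and mid-day 1 together, 1 member was called at midnight against dusk and 1 at dusk against dawn, and 6 were lower at midnight than at mid-day at an unadjusted p. With the XIST indicator the retina counts were 10 over the 4 times, 9 higher at dusk than at dawn, 9 lower at midnight than at dusk and 8 higher at mid-day than at dawn. HSPE1 in the pineal gland against the retina was 0.12 under quantile normalization in place of -0.39; the causes were not tested. Correlations of same-numbered libraries ran from -0.06 to 0.17 between tissues, -0.11 to 0.15 in the pineal gland and -0.37 to 0.32 in the retina. Whether the 2 tissues of a time came from the same animals cannot be told from these values, since a shared animal need not give correlated levels in different tissues. With a replicate block the retina had 18 members over the 4 times, 19 higher at dusk than at dawn and 18 lower at midnight than at dusk, the pineal gland 6 over the 4 times, and 32 members were called between the tissues. The 2 pools limit every control comparison, and HSPB1 (0 to 7 reads in pineal and retina libraries) and HSPE1 (14 to 72) rest on few reads.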
